A study of Homo sapiens with 11 samples.

Results

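The Krüppel-like factor genes KLF2, KLF3, KLF4, KLF5, KLF6, KLF7, KLF9, KLF10, KLF11 and KLF17 were followed in prostate epithelial cells moved from normoxia to 1% oxygen, 10 genes of 60676 in the deposited table. They were taken by symbol and Ensembl identifier, with no threshold on any value. KLF17 was chosen by its high average log2 fold change against 0 h in these same libraries, and the other 9 as family members, with the time course known. Their differences from 0 h, and which of these were called, are therefore given as a description from which nothing is read. Tests are given for differences between the times in 1% oxygen, which for KLF17 are a description too. All the samples came from RWPE1, a single immortalized, non-tumorigenic line of human prostate epithelium grown in keratinocyte serum-free medium with bovine pituitary extract and EGF. The groups were normoxic cells (0 h, 3 libraries) and cells held in 1% oxygen for 6 h (3 libraries), 12 h (3 libraries) and 24 h (2 libraries), and the other replicate of 24 h is not analysed here. The medium of the hypoxic cells also held 10 mM HEPES, so low oxygen and the added buffer cannot be told apart in any comparison with 0 h. The sources do not say whether replicates were separate cultures, and p-values measure only the spread between these libraries.

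Krüppel-like factors are transcription factors that bind CACCC elements and GC-rich promoter boxes through a C-terminal zinc finger domain, while their N-terminal parts recruit activators or corepressors. In epithelia, KLF5 is known for driving basal cell growth and KLF4 for terminal differentiation. KLF6 is an immediate-early gene of injury that has been studied as a tumor suppressor in the prostate, KLF9, KLF10 and KLF11 recruit SIN3A, KLF3 recruits CTBP proteins, and KLF17 is known mainly from germ cells and the early human embryo.

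The promoters of KLF17 and KLF6 are shown because KLF17 had no count in normoxia and KLF6 had the highest fold change against 0 h at 6 h among the 9 members counted in every library. KLF17 (ENSG00000171872) lies on the plus strand of chromosome 1 at 44118821 to 44135140, and KLF6 (ENSG00000067082) on the minus strand of chromosome 10 at 3775996 to 3785281, in GENCODE release 44 on GRCh38. The sequences below are from RefSeq on GRCh38.p14, in the direction of transcription and without transcribed bases, at chr1:44118571-44118820 on the plus strand for KLF17 and chr10:3785282-3785459 on the minus strand for KLF6. Capitals mark CACCC or its reverse complement GGGTG in KLF17, and ACGTG or its reverse complement CACGT, a form of the core bound by hypoxia-inducible factors, in KLF6.
KLF17: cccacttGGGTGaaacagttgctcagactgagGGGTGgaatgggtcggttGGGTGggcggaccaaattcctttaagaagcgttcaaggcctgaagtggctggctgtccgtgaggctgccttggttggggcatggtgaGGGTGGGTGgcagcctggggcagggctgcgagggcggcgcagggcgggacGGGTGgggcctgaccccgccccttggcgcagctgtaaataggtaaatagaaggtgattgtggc
KLF6: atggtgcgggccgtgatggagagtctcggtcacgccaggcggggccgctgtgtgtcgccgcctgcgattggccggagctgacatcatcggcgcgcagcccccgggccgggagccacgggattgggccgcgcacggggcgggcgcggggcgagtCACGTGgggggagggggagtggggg
The KLF17 window of 300 bases, 250 before and 50 after the RefSeq start, held 6 matches of CACCC, all as GGGTG on the printed strand. At least 1 match of CACCC on either strand was found in 59.9% of 35116 RefSeq promoter windows of that length, and at least 6 in 0.578%. The window also held 4 matches of GGGCGG, a GC box found in 45% of all windows, and no ACGTG. In KLF6 the capitals are 2 overlapping matches on opposite strands, which start 97 and 96 bases before the RefSeq start, and ACGTG was found in 21.4% of windows. RefSeq promoters were matched for 8 of the 10 members, in 13 windows. ACGTG was also present in at least 1 window of KLF4, KLF5, KLF7 and KLF11, and in no window of KLF2, KLF9 or KLF17. The KLF4 window held 3 matches, more than that of KLF6. At least 3 matches were found in 1.98% of all windows and at least 2, as in KLF6, in 8.82%. A match describes the letters only and says nothing about binding in these cells.

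Between 27496009 and 49488345 reads were counted per library, and values below are read counts relative to library size (CPM) scaled by TMM unless counts are named. The 24 h libraries stood apart, with TMM factors of 0.851 in replicate 1 and 0.539 in replicate 2, against 0.910 to 1.32 in the other 9 libraries. The epithelial identity of the line was clear from its markers. KRT5, KRT14, KRT8, KRT18, EPCAM, CDH1 and TP63 were counted in every library, with a summed level of 7948 to 10675 CPM in normoxia and 16125 to 22184 CPM at 24 h. Of these 7 markers, 4 were called higher and 1 lower at 6 h against 0 h, 5 and 1 at 12 h, and 5 and 2 at 24 h. Of all tested genes, 25.1%, 24.2% and 29.9% were called higher and 27.7%, 27.1% and 31.3% lower at these times. KRT18 was 3.10, 3.79 and 5.58 times its normoxic level and TP63, the basal cell factor, was 3.29, 1.93 and 2.82 times lower. The basal keratins did not follow TP63. KRT14 had means of 1203 CPM in normoxia and 2777, 3154 and 5283 CPM in hypoxia, and KRT5 of 7277 CPM and 10329, 14434 and 12073 CPM. What part such shifts had in the values below was not tested. Among 10 endothelial, leukocyte and fibroblast markers, COL1A1 stood at 52.8 CPM in normoxia and 29 CPM at 24 h, and the other 9 had group means of at most 0.211 CPM. For CD68, 81.6% of the exonic length overlaps another gene on the same strand. How such reads were counted is not given, so its low value says little. Of these 10 markers, 2 were tested. At the 3 times 0, 0 and 0 were called higher and 1, 2 and 2 lower, beside the same shares of all tested genes. All 8 known hypoxia genes used as a check, among them CA9 and SLC2A1, were called higher at each hypoxic time, again beside those shares. Fewer cells with a transcript and less transcript per cell cannot be told apart in bulk RNA.

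Per kilobase of exon, KLF5 was the most abundant of the 10 in every group, with 71 ± 9.55 RPKM in normoxia (SD, n = 3), 107 ± 4.86 at 6 h, 79 ± 3.7 at 12 h and 90.8 ± 46 at 24 h (n = 2). It made up 53.8%, 54.2%, 44.2% and 54% of the summed mean RPKM of the 10 genes at 0, 6, 12 and 24 h. In normoxia KLF7, KLF3, KLF4, KLF9 and KLF10 followed at 11.4 to 8.96 RPKM. From KLF3 to KLF10 in that order, each gene's normoxic RPKM range overlapped with that of the next. KLF6 (5.79 RPKM) and KLF11 (4.94 RPKM) came after them without overlap, and KLF2 (0.0902 RPKM) and KLF17 (0 RPKM) were last. At 6 h KLF6 was second at 23.9 RPKM with a range that overlapped that of KLF7 at 21.9 RPKM. KLF7 was second at 12 h (28.1 RPKM), above the range of KLF6 (21.6 RPKM). KLF4 was second at 24 h, where its 2 libraries (10.8 and 26.1 RPKM) spanned the mean RPKM of KLF7, KLF6 and KLF10. KLF17 stayed in the last 2 places, and its mean level was 0.102 RPKM at 6 h, 0.73 RPKM at 12 h and 1.4 RPKM at 24 h.

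**Figure D1:**
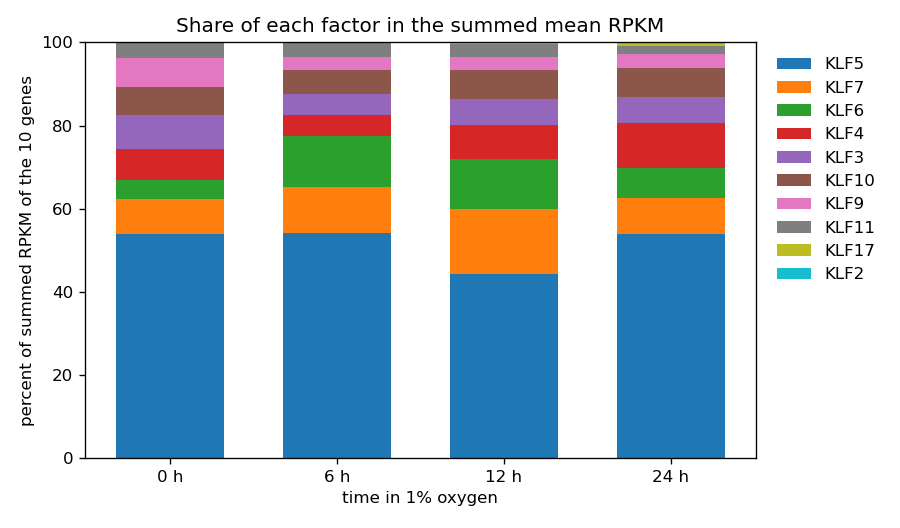
Stacked bars give the percent of the summed mean RPKM of the 10 genes (vertical axis) held by each gene at 0, 6, 12 and 24 h (horizontal axis). KLF5 holds 44.2% to 54.2% in every group, and the share of KLF6 is 4.38% at 0 h and 12.1% at 6 and 12 h.

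KLF17 was not counted in normoxia and was counted in every hypoxic library. Its deposited counts were 0, 0 and 0 at 0 h, 4, 21 and 8 at 6 h, 108, 94 and 21 at 12 h, and 184 and 18 at 24 h. These correspond to 0.137, 0.681 and 0.152 CPM at 6 h, 3.65, 2.79 and 0.48 CPM at 12 h, and 7.87 and 0.981 CPM at 24 h. The levels were low and uneven, with 12 h replicate 3 within the range of the 6 h libraries and 24 h replicate 2 below the other 2 libraries of 12 h. With the normoxic libraries at 0, only lower bounds can be given, set against a floor of 3 counts per library (0.0738 CPM on average), and they cover counting error only. KLF17 was at least 4.38-fold higher at 6 h, at least 31.2-fold higher at 12 h and at least 60-fold higher at 24 h. The bound at 6 h was 1.95 without 6 h replicate 2, and the bound at 24 h was 13.3 without 24 h replicate 1 and 107 without 24 h replicate 2.

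The reads assigned to KLF17 could be separated from those of its relatives along most of its length. Of its 36-base windows, the shortest read kept by the authors, 3.36% also occurred on the same strand of other genes, such as the pseudogene KLF17P1. No 36-base window was shared between any of the 10 members. Genes around KLF17 were examined after its values had been seen. ENSG00000233514, a processed pseudogene within KLF17 on the opposite strand, had 40 to 63 counts in normoxia and was called higher at all 3 hypoxic times, 1.83, 1.84 and 3.84 times. ENSG00000230615, a long noncoding RNA that ends 2908 bases before KLF17, had 12 to 27 counts in normoxia and was called higher at 12 h (3.34 times) and 24 h (5.87 times). DMAP1, which starts 78315 bases beyond KLF17 on the same strand, was called lower at 6 h (-0.65 on the log2 scale) and 12 h (-0.58). KLF18, which lies 2681 bases beyond KLF17 on the other strand, had 0 to 5 counts and was not tested.

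**Figure D2:**
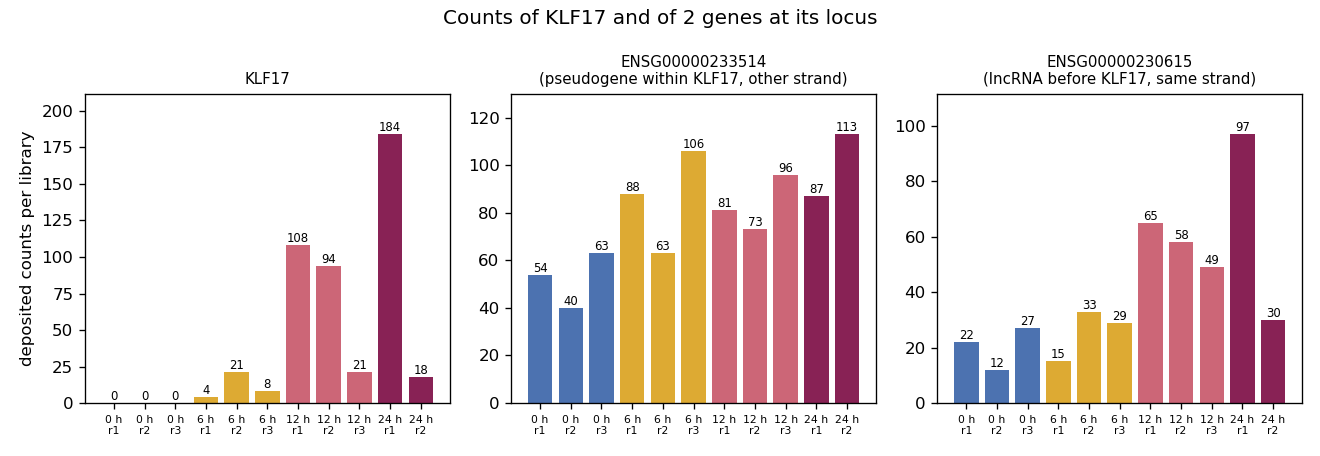
Bars give the deposited counts (vertical axes) of KLF17 and of ENSG00000233514 and ENSG00000230615 in each library (horizontal axes, r for replicate), coloured by time. KLF17 has 0 counts in the 3 normoxic libraries and 4 to 184 in the 8 hypoxic libraries, whereas both neighbours are counted in normoxia.

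KLF6 and KLF7, which share a closely related N-terminal domain, stood higher at 6 and 12 h than in normoxia. KLF6 measured 36.9, 34.7 and 35 CPM at 0 h, 141, 103 and 197 CPM at 6 h, 149, 117 and 132 CPM at 12 h, and 81.6 and 63.2 CPM at 24 h. All 8 hypoxic libraries lay above the normoxic ones, and both 24 h libraries lay below all those of 6 and 12 h. Its log2 fold change against 0 h was 2.05 ± 0.21 at 6 h (SE), 1.90 ± 0.21 at 12 h and 1.03 ± 0.23 at 24 h, or 4.13, 3.74 and 2.04 times. The value at 24 h was 0.77 without replicate 1, 1.18 without replicate 2 and 0.15 with libraries scaled by size alone. KLF7 (ENSG00000118263, chromosome 2, 207074137 to 207173856, minus strand), a regulator known from neurons, measured 110, 107 and 112 CPM at 0 h, 241, 194 and 198 CPM at 6 h, 235, 288 and 287 CPM at 12 h, and 173 and 107 CPM at 24 h. The libraries of 6 and 12 h lay above normoxia, and 24 h replicate 2 lay at the normoxic level. Its log2 fold change against 0 h was 0.94 ± 0.18, 1.30 ± 0.18 and 0.36 ± 0.20, the last being -0.085 without 24 h replicate 1 and 0.64 without 24 h replicate 2.

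**Figure D3:**
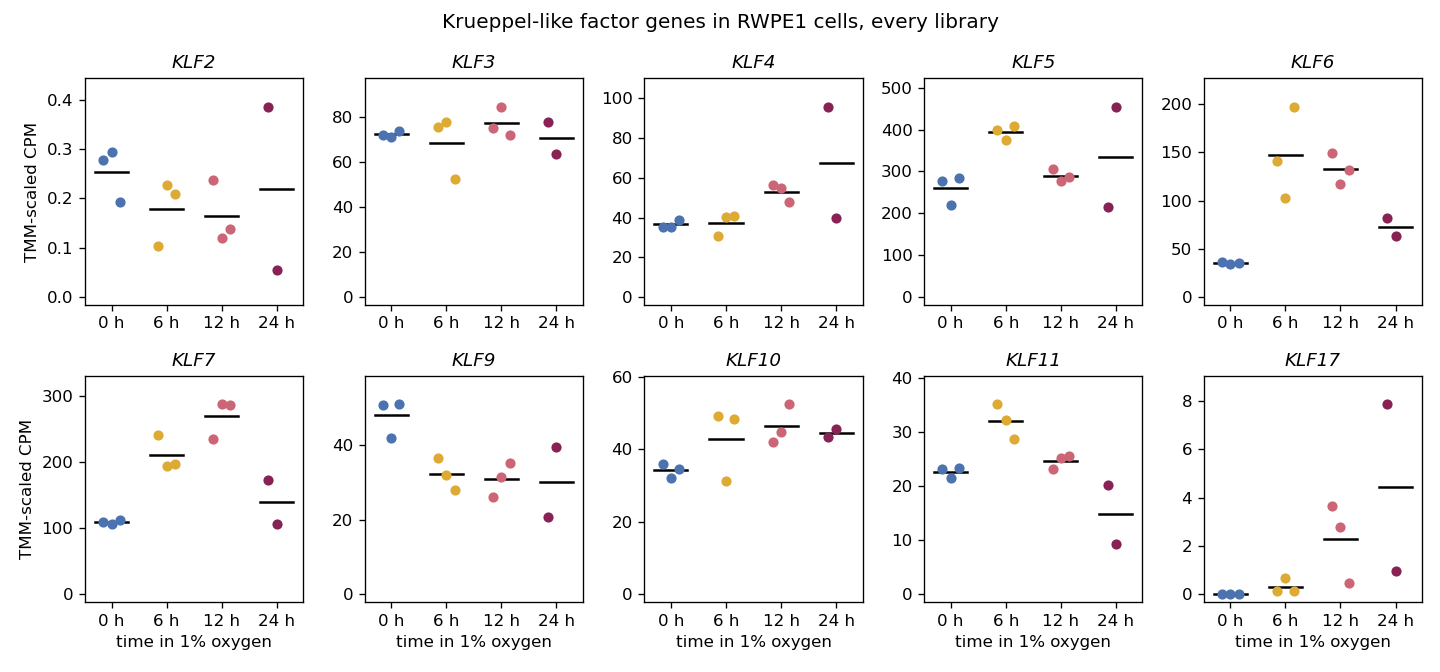
Each panel shows 1 gene, with a point for the TMM-scaled CPM of every library (vertical axis, linear) by time (horizontal axis) and a line at the group mean. KLF6 sits at 34.7 to 36.9 CPM in normoxia and at 63.2 to 197 CPM in 1% oxygen, and the 2 points at 24 h lie far apart for KLF4, KLF5 and KLF17.

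KLF4 and KLF5, the differentiation and growth factors of epithelia, lay far apart in the 2 libraries of 24 h. KLF4 (ENSG00000136826, chromosome 9, 107484852 to 107490482, minus strand) measured 35.4, 35.2 and 38.9 CPM at 0 h, 30.7, 40.1 and 40.7 CPM at 6 h, 56.3, 54.8 and 47.9 CPM at 12 h, and 95.5 and 39.7 CPM at 24 h. The 12 h libraries lay above all those of 0 and 6 h, whereas 24 h replicate 2 lay within the range of 6 h. Its log2 fold change against 0 h was 0.03 ± 0.24, 0.54 ± 0.25 and 0.89 ± 0.27, and the last was 0.065 without 24 h replicate 1 and 1.37 without 24 h replicate 2. KLF5 (ENSG00000102554, chromosome 13, 73054976 to 73077541, plus strand) measured 277, 221 and 285 CPM at 0 h, 400, 375 and 409 CPM at 6 h, 305, 278 and 288 CPM at 12 h, and 215 and 454 CPM at 24 h. The 6 h libraries lay above those of 0 and 12 h, and the 24 h pair held both the lowest and the highest value of all 11 libraries. Its log2 fold change against 0 h was 0.60 ± 0.22, 0.15 ± 0.22 and 0.36 ± 0.25. The last was 0.74 without 24 h replicate 1 and -0.30 without 24 h replicate 2, and it was -0.68 when libraries were scaled by size alone.

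KLF2 (ENSG00000127528, chromosome 19, 16324826 to 16328685, plus strand), known for the quiescence of endothelium and lymphocytes, was scarcely counted. It had 12, 11 and 8 counts at 0 h, 3, 7 and 11 at 6 h, 7, 4 and 6 at 12 h, and 9 and 1 at 24 h. The groups overlapped, and differences of the size of the SE (0.50 to 0.62 on the log2 scale against 0 h) were not detectable at this depth. KLF2 passed the filter on low counts through 2 normoxic libraries and 1 library of 24 h, and KLF17 through 6 hypoxic libraries. The other 8 members passed in every library, so all 10 were tested.

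The SIN3A-recruiting repressors KLF9, KLF10 and KLF11 did not share a direction against 0 h. KLF9 (ENSG00000119138, chromosome 9, 70384604 to 70414657, minus strand), which glucocorticoid and thyroid hormone induce, measured 50.7, 41.9 and 50.8 CPM at 0 h, 36.4, 31.8 and 28 CPM at 6 h, 25.9, 31.3 and 35.1 CPM at 12 h, and 20.8 and 39.4 CPM at 24 h. Every hypoxic library lay below every normoxic one. Its log2 fold change against 0 h was -0.58 ± 0.21, -0.63 ± 0.21 and -0.67 ± 0.24, and the last was -0.33 without 24 h replicate 1 and -1.22 without 24 h replicate 2. KLF11 (ENSG00000172059, chromosome 2, 10042849 to 10054836, plus strand), a gene induced by TGF-beta, measured 23.2, 21.6 and 23.4 CPM at 0 h, 35.2, 32.3 and 28.8 CPM at 6 h, 23.2, 25.3 and 25.7 CPM at 12 h, and 20.3 and 9.37 CPM at 24 h. It lay above normoxia in all 6 h libraries and below it in both 24 h libraries. Its log2 fold change against 0 h was 0.50 ± 0.21, 0.12 ± 0.21 and -0.61 ± 0.25, and the last was -1.33 without 24 h replicate 1 and -0.18 without 24 h replicate 2. Of the 36-base windows of KLF11, 8.36% also occurred on the opposite strand of another gene. The same share was 7.8% for KLF4, 5.12% for KLF3, 1.23% for KLF17 and 0.327% for KLF7. The strand setting of the counting was not given in the sources used here.

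With all libraries and TMM scaling, KLF10 and KLF3 differed from normoxia by at most 0.44 and 0.10 on the log2 scale. KLF10 (ENSG00000155090), also induced early by TGF-beta, measured 36, 32.1 and 34.5 CPM at 0 h, 49.2, 31.2 and 48.3 CPM at 6 h, 41.9, 44.7 and 52.4 CPM at 12 h, and 43.3 and 45.6 CPM at 24 h. All hypoxic libraries but 6 h replicate 2 lay above normoxia, and the log2 fold change against 0 h was 0.33 ± 0.17, 0.44 ± 0.17 and 0.38 ± 0.19. With library size alone as the scaling, the value at 12 h was -0.03. KLF3 (ENSG00000109787, chromosome 4, 38664197 to 38701517, plus strand) measured 72.4, 71.2 and 73.8 CPM at 0 h, 75.8, 78 and 52.6 CPM at 6 h, 75.3, 84.7 and 72.4 CPM at 12 h, and 78.1 and 63.9 CPM at 24 h. All 4 groups overlapped, with log2 fold changes against 0 h of -0.08 ± 0.16, 0.10 ± 0.16 and -0.03 ± 0.18. The 95% interval of the KLF3 difference at 12 h ran from -0.22 to 0.41. With library size alone as the scaling, the KLF3 value at 24 h was -0.91.

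Calls are those of the quasi-likelihood test in edgeR, at a p-value under 0.05 after Benjamini-Hochberg adjustment across the 19981 genes tested. KLF17 was called higher at each time against 0 h, and its call at 6 h was lost in 10 of 18 alternative settings. Its choice by this contrast and its passing the filter through hypoxic libraries alone had fixed the direction. It is left out of the counts that follow. Of the other 9 members, which were taken with these contrasts known, 3 were called higher at 6 h (KLF5, KLF6 and KLF7), where 25.1% of all tested genes were, and 1 lower (KLF9), where 27.7% were. At 12 h against 0 h, KLF6, KLF7 and KLF10 were called higher (24.2% of all genes) and KLF9 lower (27.1%). At 24 h against 0 h, KLF4 and KLF6 were called higher (29.9%) and KLF9 and KLF11 lower (31.3%). These comparisons share the normoxic libraries. Among the 9, the calls lost most often under alternative settings were KLF5 at 6 h and KLF11 at 24 h, each in 11 of 20. The call of KLF10 at 12 h was lost in 9 of 20, with its sign reversed in 1 more.

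**Figure D4:**
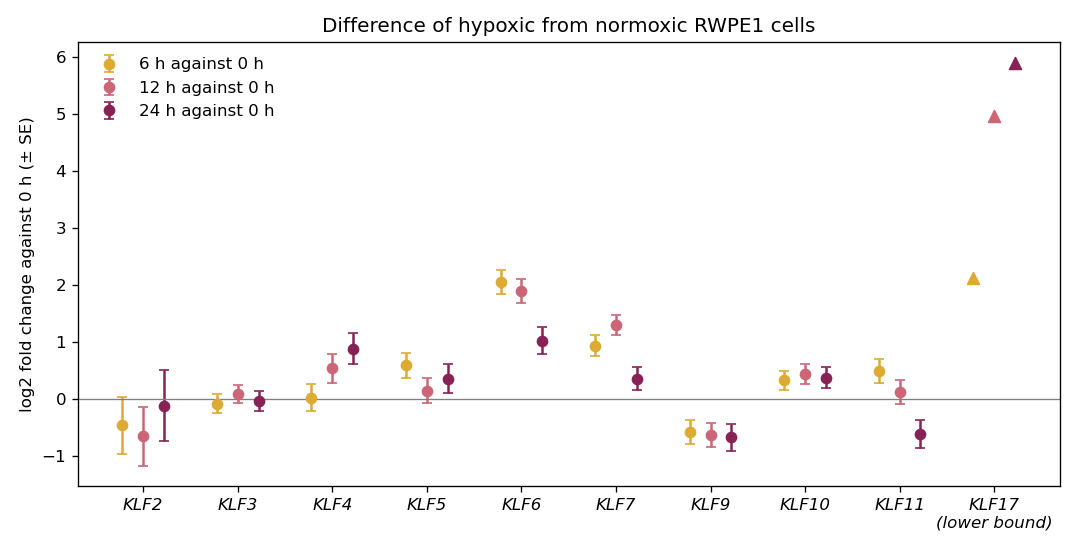
Points give the log2 fold change against 0 h (vertical axis, error bars SE) of 9 genes at 6, 12 and 24 h, and triangles give the lower bounds for KLF17, which had no counts at 0 h. KLF6 is highest at 6 h (2.05) and lower at 24 h (1.03), and KLF9 lies below 0 at each time.

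The times in 1% oxygen were compared next, to ask which members differed between early and late hypoxia. The members were chosen with earlier results of these data in view, and those other than KLF17 not on these contrasts. The choice of KLF17 used its values at these times. It passed the filter in 1 library of 6 h, 3 of 12 h and 2 of 24 h, so its p-values here are not read as a test. From 6 to 12 h no member was called by edgeR, DESeq2 or limma-voom (4 by limma-voom with sample quality weights), with 1 of 10 at an unadjusted p under 0.05, beside 1.88% of all tested genes called higher and 3.07% called lower. That 1 was KLF17, at a log2 fold change of 2.87 ± 0.94 and an edgeR adjusted p of 0.112. Leaving out either library of 24 h from the fit changed the calls in this comparison, to KLF4, KLF7 and KLF17 higher and KLF5 and KLF11 lower. The shares of all tested genes given here are those of the main fit. Those under the other settings are not given, so these calls have no share to be set beside. From 12 to 24 h, KLF6, KLF7 and KLF11 fell, beside 13.3% of all tested genes lower and 15.1% higher. The other 7 were not called, although KLF4 was called higher without 24 h replicate 2 (0.84, edgeR adjusted p = 0.00639), KLF5 without 24 h replicate 1 (0.62, adjusted p = 0.00504) and KLF17 without a filter on low counts (0.91, adjusted p = 0.033). KLF6 fell by 0.87 ± 0.23 on the log2 scale (edgeR adjusted p = 0.0164), KLF7 by 0.94 ± 0.20 (adjusted p = 0.00631) and KLF11 by 0.73 ± 0.25 (adjusted p = 0.0434), and for all 3 both 24 h libraries lay below all those of 12 h. Without 24 h replicate 2, KLF6 (-0.72) and KLF11 (-0.30) were no longer called, and KLF7 (-0.65) still was, while KLF11 was at -1.43 without 24 h replicate 1. The call of KLF11 was also lost when any 1 library of 0, 6 or 12 h was left out, with edgeR adjusted p from 0.0503 to 0.104. With only the libraries of 12 and 24 h in the fit, none of the 3 was called (edgeR adjusted p = 0.0719, 0.0781 and 0.173).

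Between 6 and 24 h, with KLF17 left aside, KLF4 rose and KLF6, KLF7 and KLF11 fell. Of all tested genes, 22.1% were called higher and 20.3% lower. As a description, KLF17 stood higher at 24 h by 3.86 ± 0.99 on the log2 scale, with both 24 h libraries above all those of 6 h. KLF11 fell by 1.10 ± 0.25 (edgeR adjusted p = 0.00401), KLF6 by 1.02 ± 0.24 (adjusted p = 0.00442) and KLF7 by 0.59 ± 0.20 (adjusted p = 0.0327). For these 3, both 24 h libraries lay below all those of 6 h. KLF4 rose by 0.86 ± 0.27 (adjusted p = 0.0219), and its libraries overlapped. Without 24 h replicate 1, the log2 fold change of KLF17 was 1.65 (adjusted p = 0.273) and that of KLF4 0.061 (adjusted p = 0.791). KLF7 was not called without 24 h replicate 2 (-0.28, adjusted p = 0.195) or 6 h replicate 1 (-0.48, adjusted p = 0.0986), and KLF4 not without 6 h replicate 1 (0.74, adjusted p = 0.0774) or with libraries scaled by size alone (0.39, adjusted p = 0.421). With limma-voom's sample quality weights only KLF11 was called. KLF6 and KLF11 stayed called whichever library was left out, with KLF11 at -1.80 without 24 h replicate 1 and -0.66 without 24 h replicate 2. KLF3, KLF9 and KLF10 were not called in any of the 3 comparisons with all libraries and TMM scaling, and their 95% intervals from 6 to 24 h were -0.30 to 0.39, -0.56 to 0.38 and -0.32 to 0.42. KLF5 was not called from 6 to 24 h (-0.24, 95% interval -0.73 to 0.25), but without 24 h replicate 2 it was (-0.88, adjusted p = 0.00149), as it was when libraries were scaled by size alone (-0.96). The same holds for KLF9, at -0.62 without 24 h replicate 2 (adjusted p = 0.0307) and -0.78 when scaled by size alone (adjusted p = 0.00829), and the latter scaling also called it from 12 to 24 h (-0.58, adjusted p = 0.0474).

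**Figure D5:**
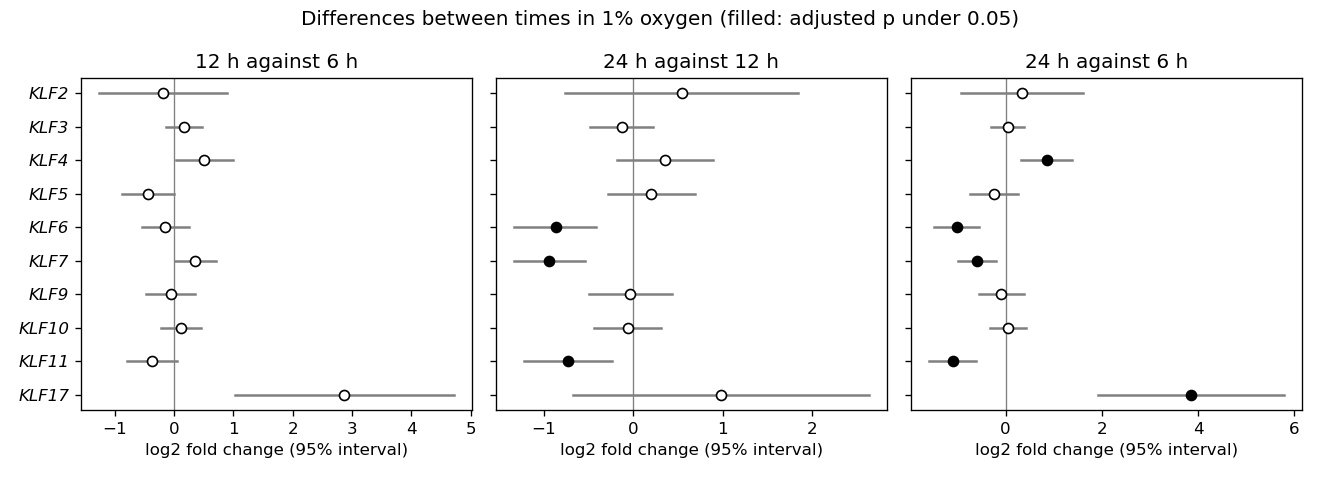
Each panel gives the log2 fold change (horizontal axis, with its 95% interval) of the 10 genes between a pair of times in 1% oxygen. Points are filled where the edgeR adjusted p is under 0.05. The intervals use a normal quantile, and those of KLF4, KLF5, KLF7 and KLF17 from 6 to 12 h exclude 0 without a call. No gene is filled from 6 to 12 h, KLF6, KLF7 and KLF11 are filled below 0 from 12 to 24 h, and from 6 to 24 h KLF4 and KLF17 are also filled above 0.

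The rest of the family was read from a list of 17 other KLF and SP genes, of which 11 were tested. At 6 h against 0 h, 3 of the 11 rose and 3 fell, beside 25.1% and 27.7% of all tested genes, at 12 h 1 rose and 2 fell (24.2% and 27.1%), and at 24 h 1 rose and 8 fell (29.9% and 31.3%). From 6 to 24 h 6 of the 11 fell, beside 20.3% of all tested genes, KLF12, KLF13, KLF16, SP3, SP4 and SP6. The median log2 fold change of the 11 at 24 h against 0 h was -0.95, beside -0.06 over all tested genes. SP5, a target of Wnt signalling, had no count in normoxia and 17 to 21 counts at 6 h, with 3 to 26 counts in the libraries of 12 h and 6 and 12 counts in those of 24 h. On the floor used for KLF17, its lower bounds were 7.77-fold at 6 h, 5.01-fold at 12 h and 6.17-fold at 24 h, the last being 3.48-fold without 24 h replicate 2 and 8.86-fold without replicate 1. KLF8, a CTBP-recruiting repressor, had 10 to 14 counts in normoxia and 0 to 3 in the hypoxic libraries, and at 24 h its 1 count gave a ratio of 0.0793 to normoxia with a 95% counting interval of 0.00196 to 0.47.

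Transcripts of proteins that the factors recruit were read from a list of 9 corepressors and coactivators, all tested. At 6, 12 and 24 h against 0 h, 4, 4 and 3 rose (25.1%, 24.2% and 29.9% of all tested genes) and 1, 1 and 3 fell (27.7%, 27.1% and 31.3%). The deacetylase HDAC2 rose at each time, by 0.95, 0.97 and 1.24 on the log2 scale, as did HDAC1 (1.27, 1.25 and 1.55 times) and CTBP2 (1.98, 1.37 and 1.43 times), and the acetyltransferase KAT2B fell by 1.28, 1.17 and 0.96 on the log2 scale. SIN3A, which KLF9, KLF10 and KLF11 bind, was called higher at 12 h only and fell from 12 to 24 h. Of 12 regulators upstream of KLF genes, 3, 2 and 0 were called higher and 4, 5 and 7 lower at the 3 times, with the same shares of all tested genes beside them. Those that fell at each time were ELK4 (-0.79, -1.05 and -2.09 on the log2 scale), MAP2K5, a kinase of the pathway that induces KLF2 and KLF4 (-1.63, -0.98 and -0.69), and the mineralocorticoid receptor NR3C2 (-1.93, -0.78 and -1.16).

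Of 12 genes reported as targets of these factors, 11 were tested, and 3, 4 and 2 were called higher and 1, 0 and 2 lower at 6, 12 and 24 h against 0 h, again beside 25.1%, 24.2% and 29.9% of all tested genes higher and 27.7%, 27.1% and 31.3% lower. FGFBP1, a carrier of fibroblast growth factors, stood at 10.8 CPM in normoxia and at 152, 102 and 107 CPM in hypoxia. S1PR1, a receptor for sphingosine 1-phosphate reported as a KLF2 target, stood at 0.11 CPM in normoxia and at 2.14, 2.13 and 1.93 CPM in hypoxia. CDH1 was called lower at 24 h only, at 324 CPM in normoxia and 156 CPM at 24 h. Of 15 genes of naive pluripotency and the early embryo, the setting in which KLF17 is best known, 6 were tested, with 1, 0 and 0 called higher and 2, 2 and 3 called lower at the 3 times, against the same shares of all tested genes. DPPA3, DUXA and LEUTX had no count in any library, and NANOG had at most 3. ZFP42 was called higher at 6 h, with 91 to 121 counts in normoxia and 182 to 267 at 6 h, while SOX2 (19 to 24 counts in normoxia and 2 to 8 in hypoxia) and TFCP2L1 were called lower at all 3 times.

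The genes most like each member were found among 13751 protein-coding genes by the root-mean-square difference of log2 CPM, centred per gene, over the 11 libraries. For KLF17, whose own spread was 2.42, they were PRSS35 at 0.942, ADAMTS1 at 1.04, RGS16 at 1.11, RASD1 at 1.12 and GEM at 1.18. PRSS35 likewise had no count in normoxia, with 1 to 8 counts at 6 h, 9 to 38 at 12 h, and 2 and 39 at 24 h. ADAMTS1, a secreted metalloprotease, had means of 1.95, 28.3 and 39.4 CPM at 0, 6 and 12 h, and its 24 h libraries were at 27.1 and 209 CPM, the former below every library of 12 h. The nearest gene to KLF6 was CPNE8 (0.195), to KLF7 PIAS1 (0.172), to KLF4 CLK3 (0.164), to KLF5 PPP4R2 (0.133), to KLF9 ASB13 (0.113), to KLF10 KIFAP3 (0.136), to KLF11 PHAF1 (0.0872), to KLF3 POLR3B (0.0819) and to KLF2 EIF4A1 (0.273).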

How the data were processed

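RNA from RWPE1 cells was made into stranded libraries in a single batch and sequenced as single-end reads. The authors trimmed reads with Trimmomatic, aligned them with STAR to GRCh38 and assigned them to Ensembl genes with featureCounts, and the deposited values are raw counts, neither filtered nor normalized. The strand setting and the handling of reads with several matches are not given in the sources used here. Symbols, positions and exonic lengths came from GENCODE release 44, where 60357 of 60676 identifiers were found.

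Genes were filtered with filterByExpr (minimum count 10, minimum total 15), which kept 19981, and scaled with TMM. edgeR 4.0.16 (R 4.3.3) fitted all 11 libraries with a mean per time (glmQLFit, glmQLFTest), with Benjamini-Hochberg adjustment across the tested genes. The biological coefficient of variation was 19.6%. The standard error is the absolute log2 fold change over the square root of F. The 95% intervals cover the spread between libraries, but they use a normal quantile and are narrower than the test implies. From 6 to 12 h those of KLF4, KLF5 and KLF7 exclude 0 at unadjusted edgeR p of 0.0586, 0.0695 and 0.0656. RPKM divides CPM by exonic length. Counting floors and intervals cover counting error only, since reads carried no molecular identifiers. The test was also run on simulated counts with the same spread for every gene and the same change at each hypoxic time. That run does not bear on the unlike libraries of 24 h.

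The members and the gene lists were chosen with earlier results of these data known. Named genes are the 10 members, those of the other lists called at all 3 times against 0 h (at most the 4 with the largest changes per list), genes given as marker levels, and the 5 genes nearest to KLF17 or the 1 nearest to each other member. KLF12, KLF13, KLF16, SP3, SP4, SP6, SIN3A, CDH1, NANOG and ZFP42 and the neighbours of KLF17 were named after their values were seen. The lists were the other KLF and SP genes, corepressors and coactivators, upstream regulators, reported targets, naive pluripotency and early embryo genes, prostate epithelial markers, markers of other cell types, and hypoxia check genes. Alternatives used limma 3.58.1 (voom, with and without sample quality weights), DESeq2 1.42.0, other scalings and filters, only the compared groups, a replicate block, and each library left out. Same-numbered libraries of different times did not deviate together (r from -0.156 to 0.207 over 15 pairs), so the fit has no block.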

Additional observations from a re-analysis of the deposited data

Results flagged for a closer look

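Differences between the hypoxic times were called for KLF4, KLF6, KLF7 and KLF11. KLF17 is given beside them as a description only, since its choice drew on these values. Of all tested genes, 22.1% were called higher and 20.3% lower from 6 to 24 h, and 15.1% and 13.3% from 12 to 24 h. A call here means that the effect against 0 h differed between the times compared. KLF17 was higher at 24 than at 6 h by 3.86 on the log2 scale, and KLF4 by 0.86. KLF6 differed by -0.87 between 12 and 24 h and by -1.02 between 6 and 24 h. KLF7 differed by -0.94 and -0.59 in the same comparisons, and KLF11 by -0.73 and -1.10. All 8 differences rest on the 2 libraries of 24 h, and those of KLF17 and KLF4 were not called without 24 h replicate 1. Without 24 h replicate 2, KLF6 and KLF11 were not called between 12 and 24 h, nor KLF7 between 6 and 24 h.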

How the results depend on the processing

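Of 1182 log2 fold changes of the members under all alternatives, 994 kept their call and direction, 89 lost a call and 43 gained one, and the causes were not tested. The other 56 changed sign, 13 of them with library size alone, 28 with 1 library left out and 15 under other settings. Of the 56, 54 were called under neither setting, among them KLF7 (-0.48) and KLF10 (-0.55) at 24 h against 0 h with library size alone, KLF17 from 12 to 24 h without 24 h replicate 1 (-1.22) and KLF2 at 24 h against 0 h without 24 h replicate 2 (0.58). The 2 where either setting was called, KLF5 at 24 h (-0.68) and KLF10 at 12 h (-0.03) against 0 h, came with library size alone. That scaling put the median log2 fold change of all genes at -0.97 for 24 h against 0 h, and relative to it KLF5 was at 0.29. It lowered the share of higher genes among all called from 48.8% to 16.4% at 24 h, from 47.2% to 20% at 12 h and from 47.6% to 27.6% at 6 h, from 38% to 14.3% between 6 and 12 h, from 53.3% to 15.5% between 12 and 24 h, and from 52.2% to 14.7% between 6 and 24 h. Of the 5 members called at 6 h against 0 h, 2 remained in number with library size alone, 3 with at least 10 counts in every library and 3 with the replicate block, and 2 to 6 without 1 library. Of 5 at 12 h, the count was 3 with at least 10 counts, and 3 to 6 without 1 library. Of 5 at 24 h, it was 2 with sample quality weights, 2 with only the compared groups, and 3 to 5 without 1 library. From 6 to 12 h, the 0 became 4 with quality weights, 1 without a filter, 3 with only the compared groups, and 0 to 5 without 1 library. From 12 to 24 h, the 3 became 1 with quality weights, 0 with only the compared groups, and 2 to 4 without 1 library. From 6 to 24 h, the 5 became 1 and 3, and 3 to 6 without 1 library. For the other KLF and SP genes, the 6 at 6 h became 3 with at least 10 counts, the 3 at 12 h became 6 with quality weights and 5 with library size alone, and the 9 at 24 h became 4 with quality weights. With 2 libraries at 24 h, leaving out either assumes that the other varies like the remaining groups. At least 10 counts in every library removed KLF2 and KLF17 from the test, so the count there is over 8 members. The main counts include KLF17 where it was called, and a count can stay while its members change. For most of these settings the share of all tested genes called is not given beside the count. At 24 h against 0 h, library size alone ended the calls of KLF4 (0.10) and KLF6 (0.15) and called KLF3 (-0.91) and KLF5 (-0.68) lower. Over all tested genes, 10552 were called at 6 h with TMM and 9843 with library size alone, 10236 and 10560 at 12 h, and 12235 and 13527 at 24 h. The replicate block shares only a number between libraries, and it also ended the call of KLF4 from 6 to 24 h (0.82). KLF2 and KLF17 at 6 h are limited by depth.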
